A study of Mus musculus with 4 samples.

Results

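Ryr1, Ryr2, Atp2a1, Atp2a2, Cacna1s, Cacna1c, Casq1, Casq2, Sln and Pln encode the proteins that release, pump, admit and store calcium in muscle cells. They were chosen by symbol, 10 of the 32285 genes in the tables. Their transcripts were followed through skeletal, cardiac and smooth muscle in 4 spatial transcriptome sections of untreated wild-type (WT) mice: 1 section labelled mouse embryo at the embryonic stage E13.5 (days after conception), 1 at E16.5, and 2 sections of esophagus from the day of birth (P0, replicates 1 and 2). Each fresh frozen section was 8 µm thick and lay on a Visium slide, a grid of barcoded spots that capture the RNA of the small patch of tissue above them. The labels name no strain, no animal behind a section and no plane of section, so the 2 P0 sections may share an animal, and at E13.5 and E16.5 stage and the part of the body that was cut cannot be told apart.

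A muscle cell contracts when calcium reaches its filaments. In skeletal muscle the voltage-sensing L-type channel of the surface membrane (pore subunit Cacna1s) opens the release channel Ryr1 of the sarcoplasmic reticulum, the calcium store, by direct contact. In heart muscle calcium that enters through the related channel Cacna1c opens Ryr2. Smooth muscle also uses Cacna1c, with inositol trisphosphate receptors beside ryanodine receptors. The SERCA pumps Atp2a1 and Atp2a2 return calcium to the store, calsequestrins (Casq1, Casq2) hold it there, and the small membrane proteins Sln (sarcolipin) and Pln (phospholamban) restrain the pumps.

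RefSeq promoter windows (GRCm38.p6, from 250 bases before to 50 after the annotated start) were found for 8 of the 10 genes. Sln and Atp2a2 were not matched. The 250 bases before the start are shown for 4 genes: Atp2a1 and Pln as examples of genes high in skeletal and in cardiac spots, and the paralogs Casq1 and Casq2, which differed in their order between those muscles. The windows are chr7:126463074-126463323 (minus strand) for Atp2a1, chr1:172219896-172220145 (minus) for Casq1, chr3:102086165-102086414 (plus) for Casq2 and chr10:53337436-53337685 (plus) for Pln. Capitals mark every CANNTG, the E-box that myogenic factors and many other basic helix-loop-helix proteins can bind.
Atp2a1: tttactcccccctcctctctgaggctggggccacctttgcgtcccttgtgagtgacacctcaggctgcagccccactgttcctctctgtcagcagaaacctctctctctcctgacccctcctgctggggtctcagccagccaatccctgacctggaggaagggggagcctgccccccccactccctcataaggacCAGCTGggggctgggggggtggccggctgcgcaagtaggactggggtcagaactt
Casq1: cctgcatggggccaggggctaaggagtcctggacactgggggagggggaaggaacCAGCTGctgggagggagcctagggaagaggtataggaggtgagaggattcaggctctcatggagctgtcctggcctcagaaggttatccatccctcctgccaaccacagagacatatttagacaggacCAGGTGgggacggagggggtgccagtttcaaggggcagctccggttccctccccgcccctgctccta
Casq2: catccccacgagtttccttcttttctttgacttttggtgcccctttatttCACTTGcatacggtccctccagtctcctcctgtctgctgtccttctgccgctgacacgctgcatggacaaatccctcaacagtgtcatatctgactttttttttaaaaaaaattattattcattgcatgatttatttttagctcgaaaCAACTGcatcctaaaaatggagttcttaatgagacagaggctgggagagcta
Pln: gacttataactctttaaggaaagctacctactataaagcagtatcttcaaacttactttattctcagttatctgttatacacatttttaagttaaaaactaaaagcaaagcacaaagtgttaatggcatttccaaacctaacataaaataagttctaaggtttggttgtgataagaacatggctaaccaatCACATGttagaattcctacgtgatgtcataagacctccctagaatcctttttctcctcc
Within the 250 bases shown, distances were counted from the RefSeq start of the window to the first base of the E-box. They were 55 bases in Atp2a1, 195 and 67 in Casq1, 200 and 52 in Casq2, and 59 in Pln. For Atp2a1 that start lies inside the gene span given below. The span reaches 126463103, its start on the minus strand, while the window begins at 126463074. Counted from the gene span, the Atp2a1 E-box lies nearer than 55 bases. The windows of Casq1, Casq2 and Pln adjoin their gene spans. E-boxes are common: on either strand, 72.3% of 32851 promoter windows of 300 bases held CANNTG. The 8 matched genes had 10 windows, of which 9, from 7 genes, held it. The narrower CAGCTG, which is contained in CANNTG, was in 16.3% of all windows and in 5 of those 10. They belonged to 5 genes (Atp2a1, Cacna1c, Cacna1s, Casq1 and Pln). The CAGCTG of Pln was not within the 250 bases shown, which leave out the 50 bases after the start. The CArG box, the motif of serum response factor, was in 1.63% of windows and the MEF2 site in 0.557%, and neither was in the windows of the 8 genes. A match is a run of letters, not a measured binding site.

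Muscle was located with marker genes that are not among the 10. A spot was called high for a muscle when the mean of ln(1 + UMIs per 10000) over its markers was at least 1, where a UMI (unique molecular identifier) counts 1 captured molecule. The lists held 8 skeletal genes (Myh3, Myh8, Mylpf, Tnnt3, Tnnc2, Tnni2, Myog, Neb), 6 cardiac genes (Myh6, Myl7, Tnni3, Nppa, Nkx2-5, Mybpc3) and 5 smooth muscle genes (Myh11, Actg2, Cnn1, Lmod1, Smtn). After spots under 500 UMIs were left out, 3220, 3588, 363 and 264 spots remained at E13.5, E16.5 and in P0 replicates 1 and 2, with medians of 29289, 26701.5, 25465 and 25619 UMIs. E13.5 held 178 skeletal-only, 334 cardiac-only and 54 smooth-only spots, and E16.5 held 1302, 339 and 62. The P0 sections held 0 cardiac-only spots and 245 and 122 smooth-only spots. Skeletal markers were high in 27 and 41 P0 spots, of which 22 and 33 were also high for smooth muscle, so these skeletal-marker-high spots are mixtures of both. Their smooth muscle list summed to 4517 and 2547 UMIs per 1000000 (CPM), beside 5069 and 4559 in smooth-only spots. Spots scoring between 0.9 and 1.1, near the threshold, numbered 47 for skeletal, 17 for cardiac and 13 for smooth muscle at E13.5, and 259, 36 and 70 at E16.5. Spots of different sections shared 24 to 2542 barcodes, since the slide barcodes are fixed.

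**Figure D1:**
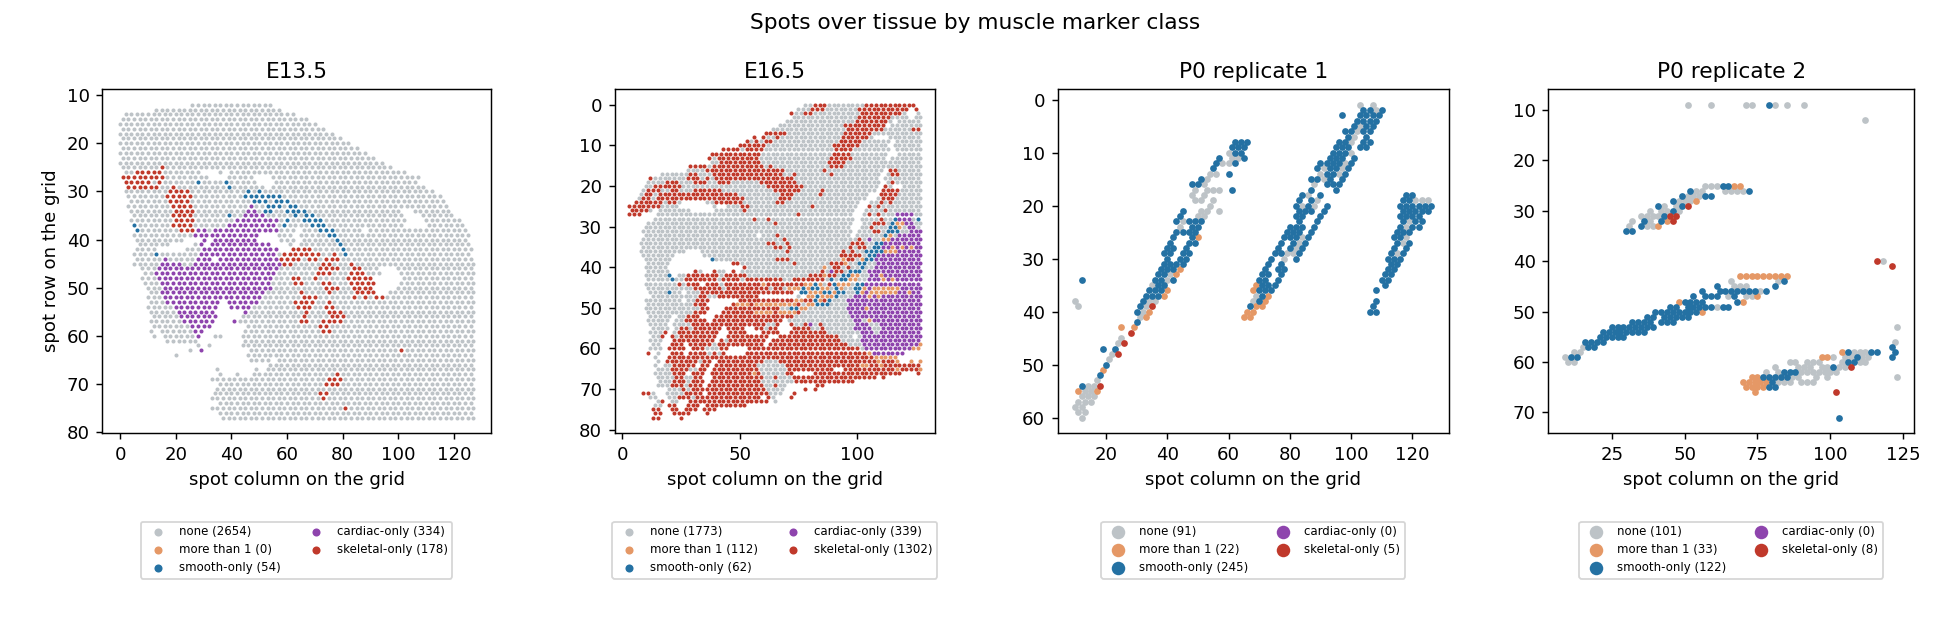
Maps of the 4 sections by grid column and row, each point a spot coloured by the muscle list that was high in it. Cardiac-only spots (334 at E13.5, 339 at E16.5) appear in the embryo sections alone, and skeletal-only spots number 178 at E13.5 and 1302 at E16.5.

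In the embryo sections the genes separated by muscle. At E13.5, 5 of the 10 had their highest CPM in skeletal-only spots (Ryr1, Atp2a1, Cacna1s, Casq2, Sln) and 5 in cardiac-only spots (Ryr2, Atp2a2, Cacna1c, Casq1, Pln). At E16.5 Casq1 was highest in skeletal-only spots, giving 6 and 4, and in neither section was any of the 10 highest in smooth-only spots. Counting log2 ratios of at least 2 (4-fold, pseudocount 0.5 CPM), 4 members were higher in skeletal-only than in cardiac-only spots at E13.5 (Ryr1, Atp2a1, Cacna1s, Sln), where 2.6% of 13595 genes were. Lower by 4-fold were 2, Ryr2 and Pln, against 2.8% of genes; Casq1, at -1.99, lay just short. At E16.5, 4 were higher (Ryr1, Atp2a1, Cacna1s, Casq1), against 2.56% of 16370 genes, and 3 lower (Ryr2, Atp2a2, Pln), against 1.31%. The median log2 ratio of the members was -0.61 at E13.5 and 1.19 at E16.5, beside 0.22 and 0.25 over all genes.

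Smooth-only spots stood below cardiac-only spots. At E13.5, 0 of the 9 members with at least 20 UMIs were 4-fold higher in smooth-only spots, against 2.21% of 12973 genes, and 6 were lower (Ryr2, Atp2a2, Casq1, Casq2, Sln, Pln), against 4.35%. At E16.5, 1 of 10 was higher, Cacna1s, against 1.49% of 14391 genes, and 5 were lower (Ryr2, Atp2a2, Casq2, Sln, Pln), against 2.22%. The higher call of Cacna1s rested on 12 UMIs and was lost under 4 alternative settings. Each stage has 1 section, so these comparisons have no replicate check and no test. The intervals below are exact 95% intervals that cover counting error only. In every spot a lower level can mean fewer cells of a type or less RNA per cell, which cannot be told apart.

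Red cell transcripts moved with some of these groups. The blood list (Hbb-bs, Hbb-bt, Hba-a1, Hba-a2, Alas2; 5 of 5 with UMIs) took 73002 CPM of the cardiac-only class in the E13.5 section and 196106 in the E16.5 section, beside 11497 and 20409 in skeletal-only spots and 16542.5 and 68381 in smooth-only spots. With the list taken out of the totals, Casq1 at E13.5 (-2.08) and Cacna1c at E16.5 (-2.26) passed 4-fold as lower in skeletal-only spots, and no other member crossed it. Smooth-only spots at E16.5 also held more of the other muscles' markers than at E13.5, with the skeletal list at 917 CPM against 99.3 and the cardiac list at 480 against 133, and the part of this in their levels was not tested.

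**Figure D2:**
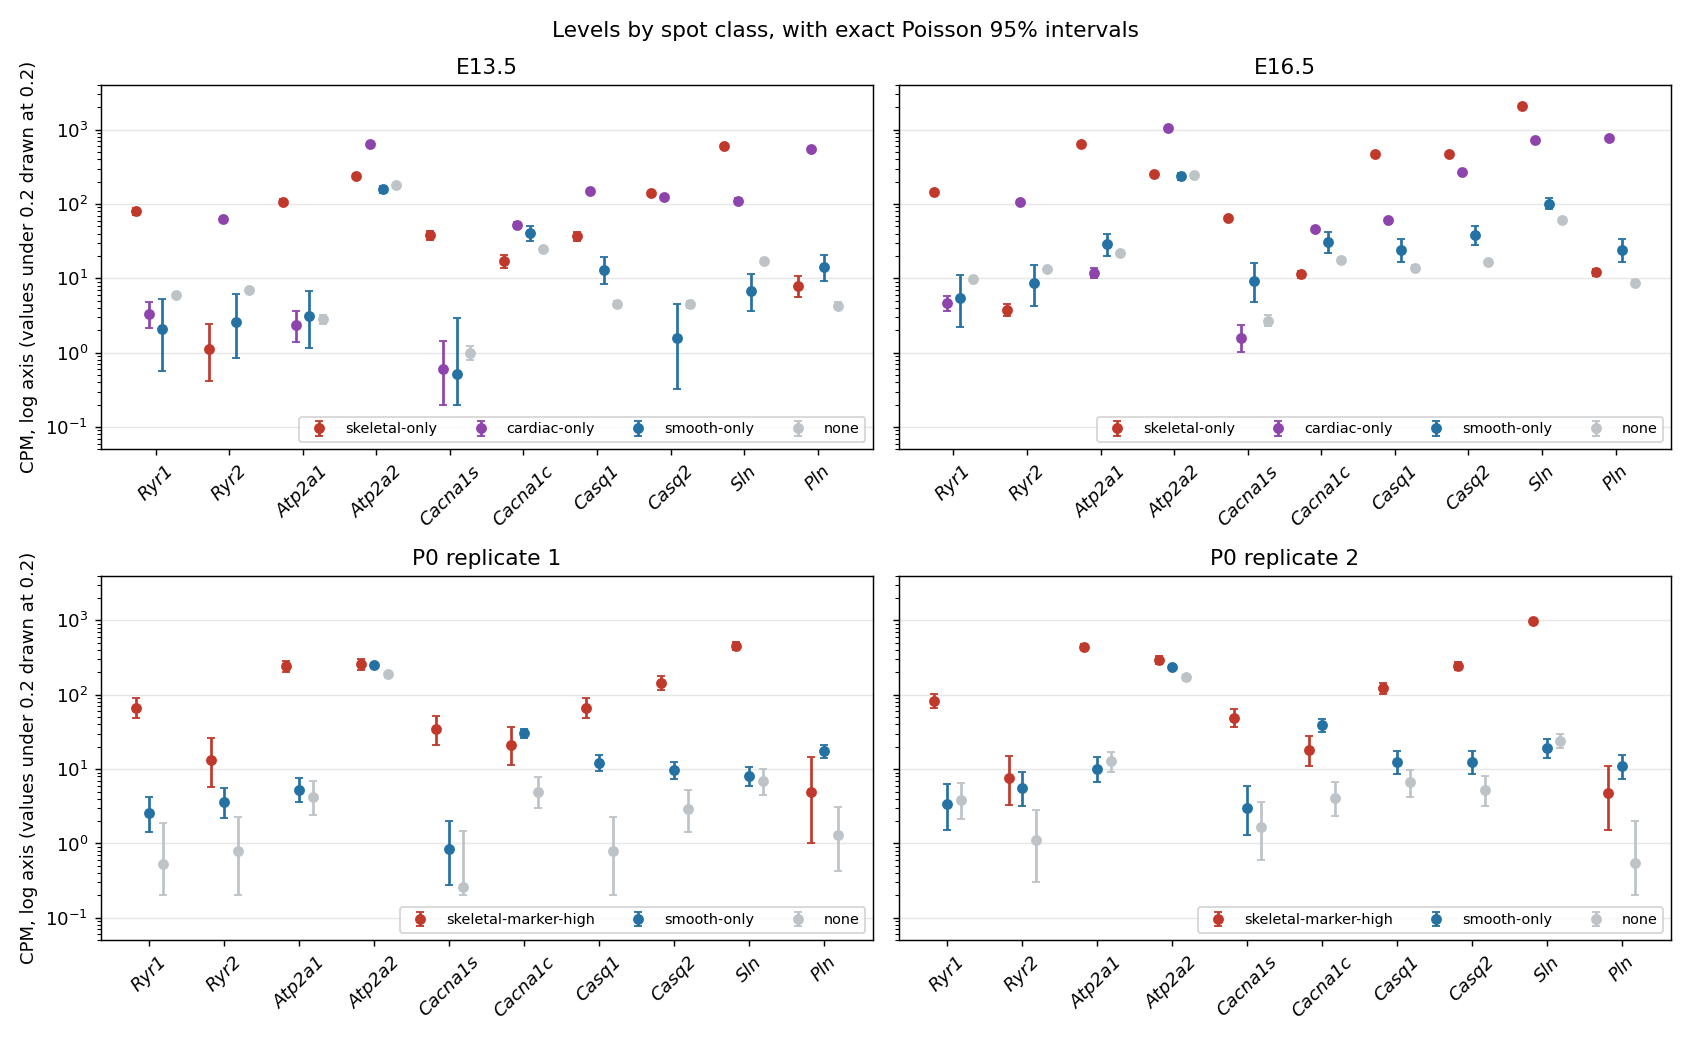
Level of each gene (CPM, log axis) in each spot class of each section, with exact 95% Poisson intervals; values under 0.2 CPM are drawn at 0.2. Ryr1, Atp2a1 and Cacna1s lie highest in skeletal classes in all 4 sections, and Ryr2 and Pln in cardiac-only spots of the embryo sections.

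At P0 the counts of both sections were summed by class and fitted with edgeR's quasi-likelihood test. The section was a blocking factor, and p-values were adjusted by Benjamini-Hochberg over 12883 genes. All 10 members were tested in each of the 3 comparisons. Against smooth-only spots, 6 rose in skeletal-marker-high spots (Ryr1, Atp2a1, Cacna1s, Casq1, Casq2, Sln), where 8.77% of genes were higher, and 0 passed as lower, where 7.82% were. The median log2 fold change of the 10 was 3.55, beside -0.05 over all genes. Nearly all spots with no muscle list high (90 of 91 and 89 of 101) were high for epithelial markers. Against them, 10 of 10 members rose in skeletal-marker-high spots, where 20.5% of genes were higher and 22.1% lower. With spots high in both muscle lists left out, 5 and 8 skeletal spots remained and 6 members rose. Those percentages do not apply to that fit, in which fewer genes were called. Smooth-only spots exceeded spots with no muscle list high in 5 members (Pln, Cacna1c, Ryr2, Casq1, Casq2), where 17.3% of genes were higher, and 0 were lower, where 21.5% were. Each class sum enters more than 1 of these comparisons, so they are not independent. With the section as block, the p-values measure how far class differences varied between 2 sections, not the spread between the sections. That variation had 2 residual degrees of freedom and was estimated largely from all genes together (15.69 prior degrees of freedom). The classes were chosen by other muscle genes in the same counts.

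Scaling mattered for the background. With library totals in place of TMM factors, the median log2 fold change over all genes moved from -0.04 to 0.22 for skeletal-marker-high and from -0.06 to 0.28 for smooth-only spots against spots with no muscle list high, and from -0.05 to -0.14 between the muscle classes. Genes called higher and lower went from 1130 and 1008 to 897 and 1279 between skeletal-marker-high and smooth-only spots. They went from 2641 and 2848 to 3573 and 2019 for skeletal-marker-high, and from 2231 and 2767 to 4225 and 1294 for smooth-only, against spots with no muscle list high. Among the members this scaling added Cacna1c (-0.84) and Pln (-1.46) as lower in skeletal-marker-high than in smooth-only spots, and Atp2a2 (0.44) as higher in smooth-only spots than in spots with no muscle list high.

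**Figure D3:**
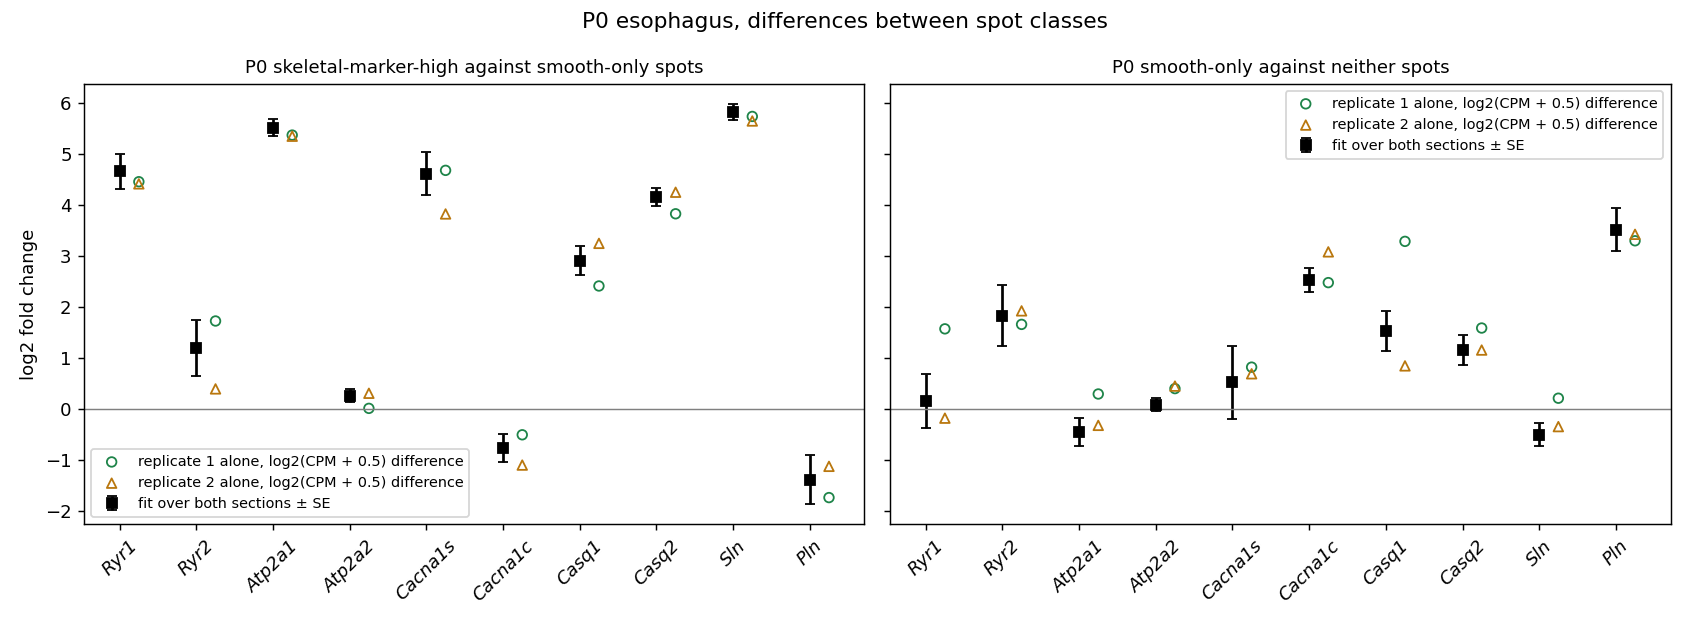
Log2 fold changes of the 10 genes at P0, skeletal-marker-high over smooth-only spots on the left and smooth-only spots over spots with neither muscle list high on the right. Squares with bars are the fit ± SE, and circles and triangles are replicates 1 and 2 alone; Sln, Atp2a1, Ryr1, Cacna1s and Casq2 lie above 4 on the left, and Pln and Cacna1c lead on the right.

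The release channels divided by muscle. Ryr1 (ENSMUSG00000030592, chromosome 7, 29003340 to 29125179, GRCm38.p6) stood at 79.6 CPM (72.2 to 87.6) in skeletal-only spots at E13.5, 3.30 (2.18 to 4.81) in cardiac-only and 2.09 (0.570 to 5.35) in smooth-only spots. The skeletal level was 24.1-fold the cardiac one (16.3 to 37.0). At E16.5 the same classes held 143.5, 4.66 and 5.44 CPM, a skeletal to cardiac ratio of 30.8 (24.4 to 39.3). Cardiac and smooth levels lay at or below those of spots with no muscle list high (5.89 and 9.69 CPM). In P0 skeletal-marker-high spots Ryr1 was at 67.2 and 82.5 CPM (74.9 ± 10.8, SD, n = 2), in smooth-only spots at 2.57 and 3.37, and in spots with no muscle list high at 0.525 and 3.86. The rise over smooth-only spots was 4.67 ± 0.34 on the log2 scale (SE; edgeR adjusted p = 1.00e-08) and held in both sections.

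Ryr2 (ENSMUSG00000021313, chromosome 13, 11553099 to 12106945) had the reverse order. It stood at 62.3 CPM (57.0 to 67.9) in cardiac-only spots at E13.5 and at 1.12 (0.413 to 2.45) in skeletal-only spots, from 6 UMIs. The cardiac level was 55.4-fold the skeletal one (25.3 to 152). At E16.5 it was at 108 against 3.76 CPM, a ratio of 28.6 (23.8 to 34.8). Smooth-only spots held 2.61 and 8.55 CPM at the 2 stages. Of the summed Ryr1 and Ryr2 UMIs, Ryr1 gave 98.6% (97.0 to 99.5) in skeletal-only and 5.04% (3.35 to 7.24) in cardiac-only spots at E13.5, and 97.4% (97.0 to 97.9) and 4.15% (3.27 to 5.20) at E16.5. UMIs are counted near the 3′ end and are not divided by length, so these are shares of molecules counted. At P0 Ryr2 was low: 13.1 and 7.59 CPM in skeletal-marker-high spots (8 UMIs in each section), 3.59 and 5.62 in smooth-only spots and 0.788 and 1.102 in spots with no muscle list high. Skeletal-marker-high and smooth-only spots differed by 1.21 ± 0.54 (adjusted p = 0.150 by edgeR), short of the threshold. Smooth-only spots exceeded spots with no muscle list high by 1.84 ± 0.60 (edgeR adjusted p = 0.0205), a call that DESeq2's Wald test lost (adjusted p = 0.14; 0.000303 to 0.14 over 10 alternatives).

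Ryr2 was also found outside muscle, with more in spots rich in neurons. Spots high for neuronal markers (Stmn2, Elavl3, Tubb3, Snap25, Syt4, Nefl) and for no muscle list held 10.6 CPM at E13.5 and 24.3 at E16.5. The remaining spots with none of the muscle, neuronal, liver or epithelial lists high held 2.72 and 2.40. The ratios were 3.89 (3.10 to 4.93) and 10.1 (7.76 to 13.4). Median depths were 37143 and 25884 UMIs at E13.5 and 30892.5 and 24416 at E16.5. Neuron-marker spots held 42.7% and 24.7% of all Ryr2 UMIs of their sections, near their 44.8% and 25.4% of all UMIs. Atp2a2 was 1.46-fold and 2.98-fold higher in the same spots (2.87 to 3.11 for the latter). Cacna1c stood at 0.799-fold at E13.5 and 3.04-fold (2.61 to 3.56) at E16.5.

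Of the L-type channels, Cacna1s (ENSMUSG00000026407, chromosome 1, 136052806 to 136119822) followed Ryr1. It was at 38.2 CPM (33.2 to 43.8) in skeletal-only and 0.612 (0.199 to 1.43) in cardiac-only spots at E13.5, a ratio of 62.5 (26.3 to 194). At E16.5 it was at 64.0 and 1.60 CPM, a ratio of 40.1 (27.1 to 62.1). Smooth-only spots held 0.523 CPM at E13.5, from 1 UMI, and 9.33 (4.82 to 16.3) at E16.5. In P0 skeletal-marker-high spots it was at 34.4 and 49.3 CPM and in smooth-only spots at 0.855 and 2.99, a rise of 4.62 ± 0.42 (edgeR adjusted p = 2.84e-07).

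Cacna1c (ENSMUSG00000051331, chromosome 6, 118587240 to 119197384) was found in heart, smooth muscle and non-muscle spots. At E13.5 it was at 52.9 CPM (48.0 to 58.1) in cardiac-only spots, 40.8 (32.2 to 50.9) in smooth-only, 17.0 (13.7 to 20.9) in skeletal-only and 24.9 in spots with no muscle list high. The cardiac and smooth intervals overlapped. At E16.5 the same classes were at 46.1, 31.1, 11.3 and 17.5 CPM. Skeletal-only spots lay below all spots with no muscle list high in both sections. Against those with no neuronal, liver or epithelial list high either, they were lower at E13.5 (29.2 CPM) and higher at E16.5 (8.71, 7.60 to 9.94). Cardiac exceeded skeletal spots 3.10-fold (2.47 to 3.93) and 4.07-fold (3.58 to 4.63). In P0 smooth-only spots Cacna1c was at 30.3 and 38.9 CPM (34.6 ± 6.12, n = 2) and in spots with no muscle list high at 4.99 and 4.13. That rise was 2.54 ± 0.24 (edgeR adjusted p = 1.64e-07). Skeletal-marker-high spots held 21.3 and 18.02 CPM, lower than smooth-only spots in both sections by 0.75 ± 0.27 on the log2 scale, which missed the threshold (edgeR adjusted p = 0.0696; 0.00172 to 0.537 over 10 alternatives, under 0.05 in 4). Cacna1s gave 69.2% (63.5 to 74.4) of the Cacna1s and Cacna1c UMIs of skeletal-only spots in the E13.5 section, 84.9% (83.4 to 86.4) in the E16.5 section, and 61.8% and 73.2% in the skeletal-marker-high spots of the P0 sections. P0 spots high for skeletal markers alone gave 83.3% and 90.9%, from 6 and 11 UMIs of both genes.

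Both pumps were present in skeletal-only spots, in proportions that differed between the embryo sections. Atp2a1 (SERCA1; ENSMUSG00000030730, chromosome 7, 126445858 to 126463103) stood at 108 CPM (99.1 to 117) in skeletal-only spots at E13.5 and at 647 (639 to 656) at E16.5, a ratio of 6.01 (5.53 to 6.54). It was at 2.32 and 11.8 CPM in cardiac-only spots. Atp2a2 (SERCA2; ENSMUSG00000029467, chromosome 5, 122453513 to 122502225) stood in those spots at 238 (225 to 251) and 253 CPM (247 to 258), a ratio of 1.06 (1.002 to 1.13). Atp2a1 thus went from 31.2% (29.1 to 33.4) to 71.9% (71.4 to 72.5) of the UMIs of both pumps in skeletal-only spots. In P0 skeletal-marker-high spots it gave 48.5% and 59.6% (54.1 ± 7.86, n = 2), and in the few P0 spots high for skeletal markers alone 67.7% (54.9 to 78.8) and 71.6% (61.0 to 80.7). In spots with no muscle list high Atp2a1 also stood 7.78-fold higher at E16.5 than at E13.5, from 2.80 to 21.8 CPM.

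Atp2a2 was present in every class. In cardiac-only spots it stood at 636 CPM (618 to 653) at E13.5 and 1039 (1023 to 1055) at E16.5, which was 2.68-fold (2.52 to 2.85) and 4.11-fold (4.003 to 4.22) its skeletal level. Smooth-only spots were at 157 (140 to 176) and 235 CPM (209 to 263), beside 182 and 248 in spots with no muscle list high. The latter include the neuron-marker spots. Spots with no muscle, neuronal, liver or epithelial list high held 148 CPM (144 to 152) at E13.5, within the smooth-only interval, and 123 (119 to 128) at E16.5, below it. At P0 Atp2a2 was at 256 and 294 CPM in skeletal-marker-high, 252 and 236 in smooth-only, and 189.7 and 172 in spots with no muscle list high, the lowest class in both sections. It passed the test only between the first and last of these classes (0.37 ± 0.14, edgeR adjusted p = 0.0400; 0.00102 to 0.949 over 10 alternatives, under 0.05 in 5, and 0.0686 without the section block). Atp2a1 at P0 was at 241 and 434 CPM in skeletal-marker-high spots against 5.30 and 10.1 in smooth-only spots, a rise of 5.52 ± 0.17 (edgeR adjusted p = 4.29e-14).

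Casq2 in both embryo sections, and Casq1 at E13.5, did not keep to the muscle for which they are usually named. Casq2, known as the cardiac form, was at 141 CPM (131 to 152) in skeletal-only and 124 (116 to 131) in cardiac-only spots at E13.5, a ratio of 1.14 (1.04 to 1.26). At E16.5 it was at 474 and 266 CPM, a ratio of 1.78 (1.72 to 1.84). Casq1, known as the fast skeletal form, was at 37.1 CPM (32.1 to 42.6) in skeletal-only and 149 (141 to 157) in cardiac-only spots at E13.5. There the cardiac level was 4.01-fold the skeletal one (3.45 to 4.68). At E16.5 the order was turned, with 471 CPM (463 to 479) in skeletal-only and 60.9 (57.1 to 64.9) in cardiac-only spots, a skeletal to cardiac ratio of 7.73 (7.24 to 8.26). Skeletal Casq1 was 12.7-fold higher (11.04 to 14.7) and cardiac Casq1 2.44-fold lower (2.24 to 2.66) in the E16.5 than in the E13.5 section. Spots with no muscle list high went from 4.53 to 13.9 CPM. Smooth-only spots held 13.1 (8.46 to 19.3) and 24.1 CPM (16.4 to 34.2) of Casq1. Their Casq2 was 1.57 CPM at E13.5, from 3 UMIs, and 38.1 at E16.5.

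Casq1 (ENSMUSG00000007122) lies on chromosome 1, 172209894 to 172219895, and Casq2 (ENSMUSG00000027861) on chromosome 3, 102086415 to 102146514. Of their joint UMIs, Casq1 gave 20.8% (18.3 to 23.5) in skeletal-only and 54.6% (52.5 to 56.7) in cardiac-only spots at E13.5, and 49.8% (49.2 to 50.4) and 18.6% (17.6 to 19.7) at E16.5. The P0 skeletal-marker-high spots gave 31.5% and 33.2% (32.4 ± 1.21, n = 2), and the spots high for skeletal markers alone 44% (24.4 to 65.1) and 43.3% (30.6 to 56.8), all between the skeletal shares of the embryo sections. At P0 Casq2 was at 146 and 246 CPM in skeletal-marker-high spots and at 9.75 and 12.4 in smooth-only spots, a rise of 4.17 ± 0.17 (edgeR adjusted p = 3.00e-12). Casq1 was at 67.2 and 122 CPM against 12.1 and 12.4, a rise of 2.92 ± 0.28 (edgeR adjusted p = 5.33e-07). With classes set by the highest 25% of scores these rises were 2.18 and 1.21 and still passed. Smooth-only spots themselves exceeded spots with no muscle list high, by 1.54 ± 0.40 for Casq1 (edgeR adjusted p = 0.00497) and 1.16 ± 0.29 for Casq2 (0.00378). Casq1 in those spots was at 0.788 and 6.61 CPM, and its difference was 3.30 in replicate 1 alone and 0.85 in replicate 2 alone.

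Sln and Pln marked different muscles, although Sln was also found in the heart. Sln (ENSMUSG00000042045, chromosome 9, 53850251 to 53853849) was at 596 CPM (576 to 617) in skeletal-only and 111 (104 to 119) in cardiac-only spots at E13.5, a ratio of 5.36 (4.98 to 5.78). At E16.5 it reached 2101 CPM (2085 to 2117) and 722 (708 to 735), so the ratio was 2.91 (2.85 to 2.97). Its level in cardiac-only spots was 6.49-fold higher (6.07 to 6.95) in the E16.5 than in the E13.5 section, against 3.52-fold (3.40 to 3.65) in skeletal-only spots and 3.49-fold in spots with no muscle list high. At P0 it was at 457.5 and 987 CPM in skeletal-marker-high spots (722 ± 375, n = 2) and at 8.04 and 19.1 in smooth-only spots. The rise was 5.83 ± 0.16 (edgeR adjusted p = 2.19e-14).

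Pln (ENSMUSG00000038583, chromosome 10, 53337686 to 53345999) was the member most concentrated in cardiac spots. It was at 553 CPM (537 to 569) in cardiac-only and 7.87 (5.67 to 10.6) in skeletal-only spots at E13.5, a ratio of 70.3 (51.9 to 97.7). At E16.5 it was at 771 (757 to 785) and 12.1 CPM (10.9 to 13.3), a ratio of 63.9 (57.7 to 71.0). Smooth-only spots stood at 14.1 (9.30 to 20.5) and 24.1 CPM (16.4 to 34.2), above the 4.28 and 8.63 of spots with no muscle list high. The liver-marker spots of E13.5 held 16.4 CPM (12.9 to 20.5), and the 112 spots of E16.5 with more than 1 muscle list high held 138 (124 to 152). In P0 smooth-only spots Pln was at 17.5 and 10.9 CPM (14.2 ± 4.66, n = 2), and at 1.31 and 0.551 in spots with no muscle list high. The difference was 3.53 ± 0.42 (edgeR adjusted p = 2.20e-06). The skeletal-marker-high spots were at 4.92 and 4.74 CPM, from 3 and 5 UMIs, lower than smooth-only spots in both sections. That difference of -1.38 ± 0.48 missed the threshold (edgeR adjusted p = 0.0569; 0.0193 to 0.502 over 10 alternatives, under 0.05 in 3). They exceeded spots with no muscle list high by 2.15 ± 0.75 (edgeR adjusted p = 0.0276; 0.000656 to 0.837 over 10 alternatives, under 0.05 in 6, and 0.0517 without the section block). P0 spots high for skeletal markers alone, 5 and 8 of them, held 0 Pln UMIs.

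The share of a gene's UMIs found in a class depends on how much of the section that class covers. At E13.5 skeletal-only spots held 5.41% and cardiac-only spots 8.29% of all UMIs, and smooth-only spots 1.94%. Against that, skeletal-only spots held 69.6% (64.0 to 74.8) of Cacna1s, 69.0% (65.8 to 72.2) of Atp2a1, 57.3% (56.0 to 58.6) of Sln, 44.9% (41.7 to 48.2) of Ryr1 and 35.3% (33.2 to 37.3) of Casq2. Cardiac-only spots held 91.4% (90.6 to 92.2) of Pln, 67.0% (64.7 to 69.1) of Casq1, 47.2% (45.1 to 49.4) of Casq2 and 46.6% (43.6 to 49.6) of Ryr2. Smooth-only spots held between 0.140% (Casq2) and 2.92% (Cacna1c) of each gene. The genes of broad level had small muscle shares: cardiac-only spots held 23.7% of Atp2a2 and 16.2% of Cacna1c, and skeletal-only spots 5.79% (5.48 to 6.10) of Atp2a2.

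At E16.5 skeletal-only spots covered 29.9% of UMIs, cardiac-only 14.8% and smooth-only 1.22%. Skeletal-only spots then held 92.2% (91.8 to 92.5) of Atp2a1, 89.6% (88.3 to 90.8) of Cacna1s, 88.3% (87.8 to 88.8) of Casq1, 86.5% (85.5 to 87.4) of Ryr1, 79.99% (79.7 to 80.3) of Sln and 72.8% (72.2 to 73.4) of Casq2. Cardiac-only spots held 90.5% (90.0 to 91.0) of Pln, 63.7% (61.8 to 65.5) of Ryr2, 41.2% (40.8 to 41.7) of Atp2a2 and 33.5% (31.5 to 35.6) of Cacna1c. Smooth-only spots held at most 1.86%, again of Cacna1c.

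In the P0 esophagus, without cardiac-only spots, Pln and Cacna1c lay mostly in smooth-only spots. Smooth-only spots covered 57.0% and 36.3% of all UMIs and skeletal-marker-high spots 5.94% and 14.3%. Smooth-only spots held 92.7% and 80.6% of Pln, 84.7% and 75.4% of Cacna1c, 65.6% and 55.6% of Ryr2 and 62.7% and 40.3% of Atp2a2. Skeletal-marker-high spots held 79.3% and 88.2% of Sln, 77.8% and 78.8% of Cacna1s, 75.8% and 86.3% of Atp2a1 and 70.7% and 79.1% of Ryr1. Casq2 had 56.7% and 83.3% there and Casq1 35.7% and 69.4%, so Casq1 lay mostly in smooth-only spots (61.7%) in replicate 1 and mostly in skeletal-marker-high spots in replicate 2.

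**Figure D4:**
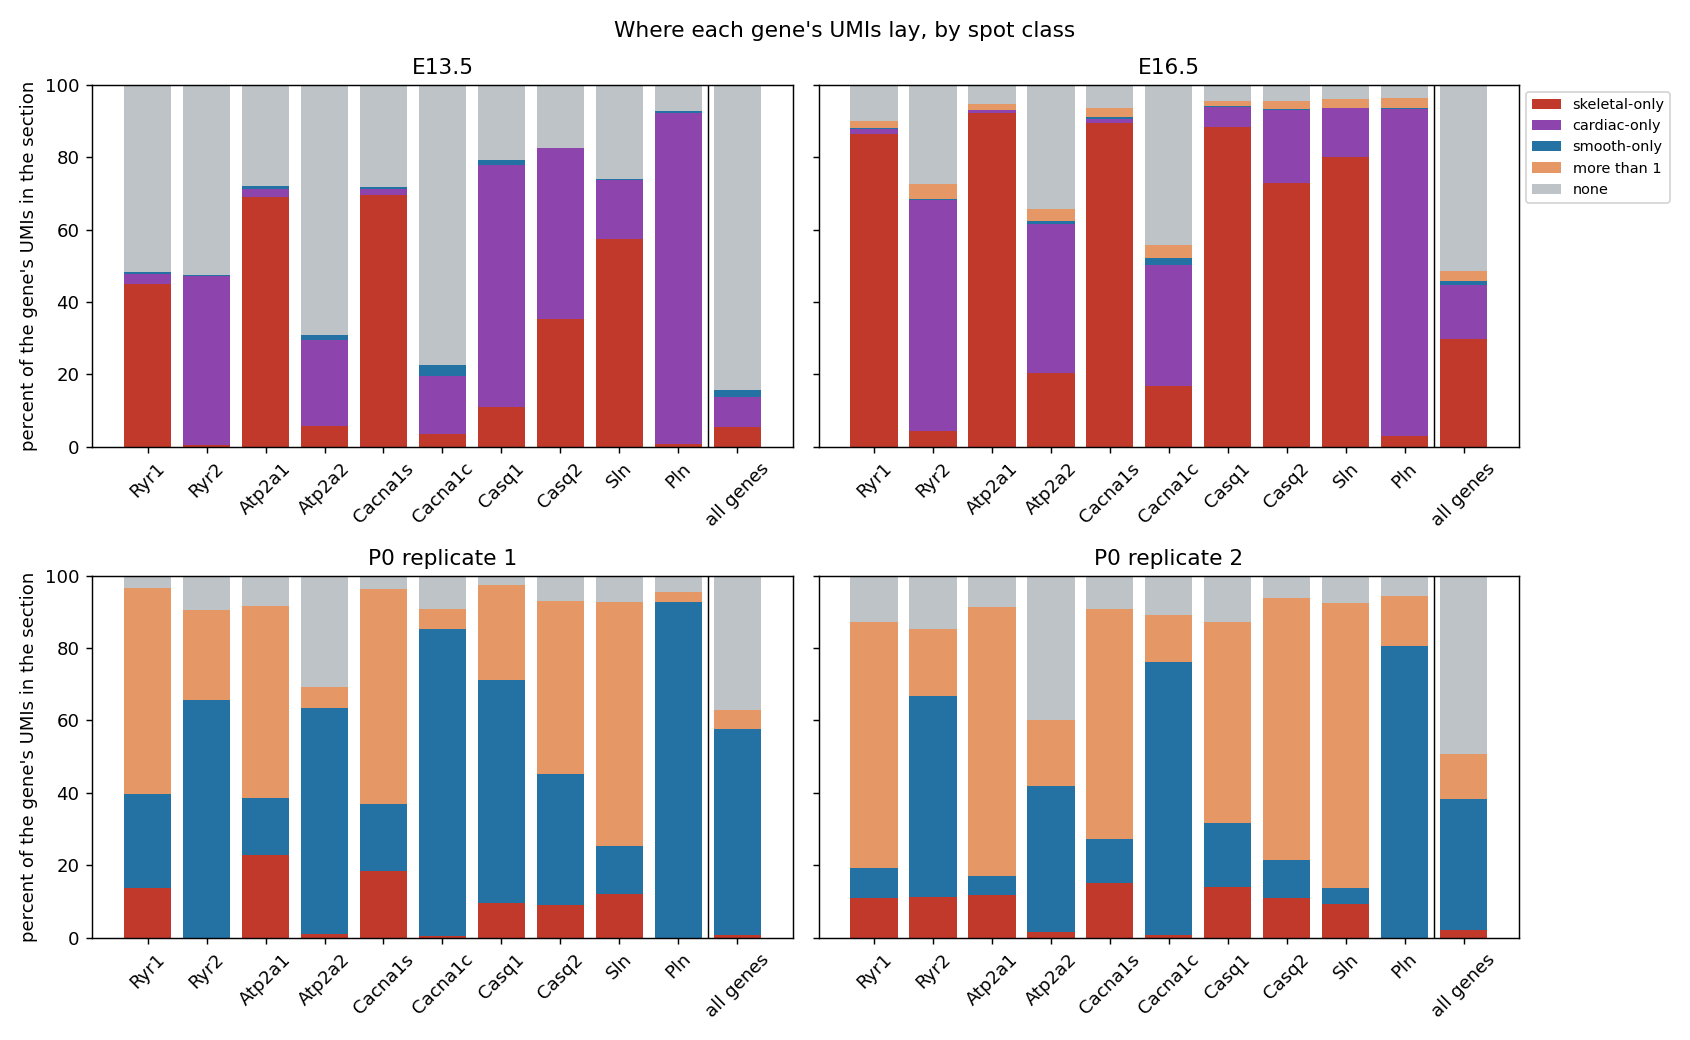
Stacked bars give the percent of each gene's UMIs that lay in each spot class of each section, with all genes together at the right. Pln fills the cardiac class in the embryo sections (91.4% and 90.5%) and the smooth class at P0 (92.7% and 80.6%), while Atp2a2 (62.7% and 40.3% in smooth-only spots at P0) lies near the all-genes bar (57.0% and 36.3%).

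Within the heart Sln and Pln lay apart. Cardiac-only spots were ordered by Myl2, the ventricular regulatory light chain, a split chosen after seeing the data, and the 25% of spots lowest and the 25% highest were compared (at E13.5, 83 and 84 spots; at E16.5, 84 and 85). Sln was at 273 CPM (254 to 293) in the low-Myl2 and 5.82 (3.10 to 9.96) in the high-Myl2 spots at E13.5, and at 960 (930 to 992) and 207 (194 to 220) at E16.5. Pln went the other way, from 55.0 (46.7 to 64.3) to 1126 CPM (1082 to 1171) and from 97.3 (87.8 to 108) to 2004 (1963 to 2045). The low-Myl2 spots held more of the atrial genes Nr2f2 (118 against 38.1 CPM at E13.5, 52.2 against 17.3 at E16.5) and Kcnj3 (25.7 against 4.48, 23.4 against 6.62). The high-Myl2 spots held more of the ventricular genes Irx4 (52.9 against 3.53, 42.7 against 0.255) and Hey2 (62.7 against 7.05, 68.5 against 4.58). Other genes of the heart chambers were less uniform: Myh6 was at 2017 in low and 615 CPM in high spots at E13.5 but at 1229 and 1608 at E16.5, and Bmp10 at 0 and 52.0, then 1.78 and 0. The blood list took 7.09% and 4.34% of UMIs of low and high spots at E13.5, beside 19.3% and 15.4% at E16.5.

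Among the other members Casq1 had opposite orders at the 2 stages. Casq1 was at 198 CPM (182 to 215) in low-Myl2 and 129 (115 to 145) in high-Myl2 spots at E13.5, but at 32.1 (26.7 to 38.2) and 101 (92.3 to 111) at E16.5. Casq2 was higher in high-Myl2 spots in both sections, at 213 against 59.9 CPM and 448 against 140. Ryr2 intervals overlapped at E13.5 (66.3, 57.1 to 76.5, and 80.2, 68.9 to 92.8), while at E16.5 high-Myl2 spots held 162 (151 to 174) against 53.7 (46.7 to 61.5). Atp2a2 was at 698 and 818 CPM at E13.5 and at 691 and 1600 at E16.5. Cacna1c was at 40.9 and 72.6 CPM, then at 18.3 and 87.5. These are 1 section per stage, and the values carry no test.

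**Figure D5:**
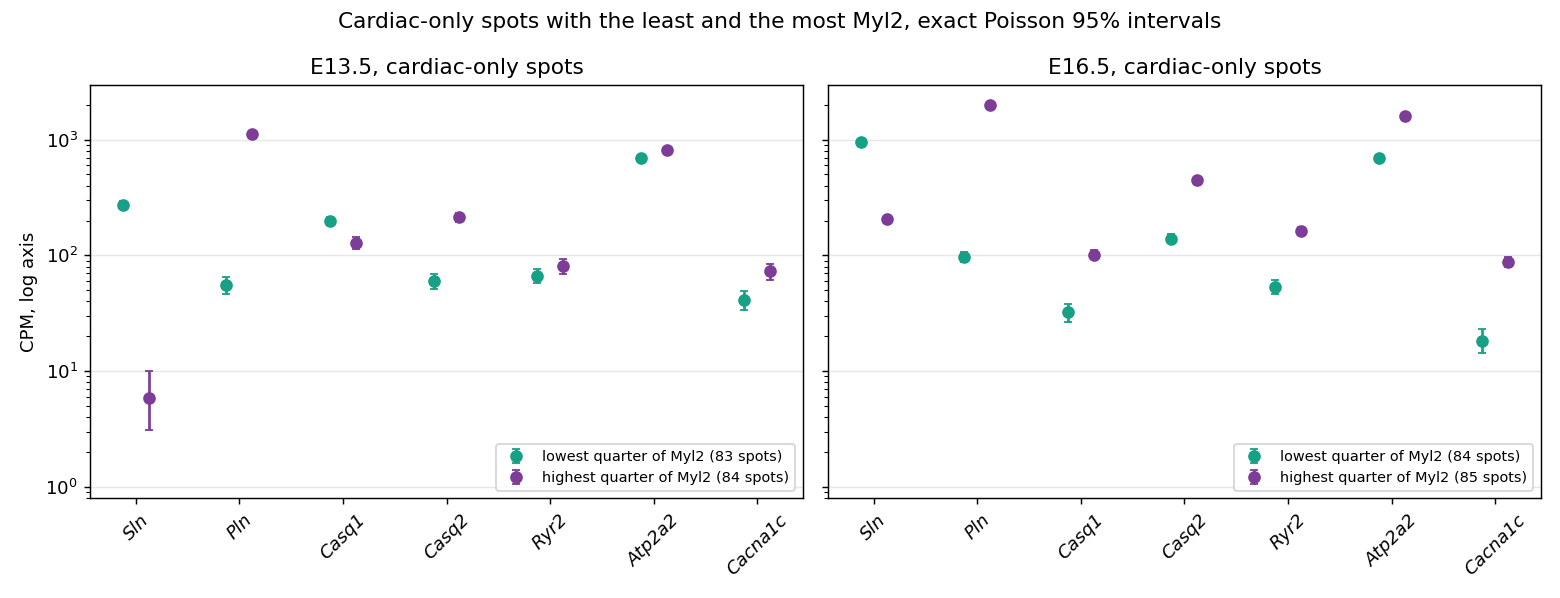
Levels (CPM, log axis) of 7 genes in cardiac-only spots in the lowest and highest 25% by Myl2 at E13.5 and E16.5, with exact 95% Poisson intervals. Sln goes from 273 to 5.82 CPM and Pln from 55.0 to 1126 from the low to the high spots at E13.5.

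The wider calcium machinery was read from a list of 40 further genes. At P0, 19 of the 37 tested rose in skeletal-marker-high over smooth-only spots and 2 fell, where 8.77% of all genes were higher and 7.82% lower, with a median log2 fold change of 0.65. The largest rises were in Cacng1, the skeletal L-type channel's gamma subunit (5.47 ± 0.26), Srl, the lumenal protein sarcalumenin (4.68 ± 0.22), Mrln, the skeletal pump inhibitor myoregulin (4.11 ± 0.31), Jsrp1, a junctional protein (4.10 ± 0.30), and Trdn, triadin, which anchors calsequestrin at the release channel (4.06 ± 0.64). The falls were in Itpr3, an inositol trisphosphate receptor (-1.21 ± 0.26), and Atp2b4, a surface membrane calcium pump (-0.61 ± 0.17). Smooth-only spots were themselves below spots with no muscle list high for Itpr3 (-0.55 ± 0.13, edgeR adjusted p = 0.00329). For Atp2b4 they were above them (1.76 ± 0.14, edgeR adjusted p = 2.99e-08). Ryr3, the third release channel, rose by 1.12 ± 0.30 (edgeR adjusted p = 0.0144) and Atp2a3, the third SERCA, by 0.65 ± 0.19 (0.0283). Strit1 was too low to be tested. Against spots with no muscle list high, 26 rose and 4 fell in skeletal-marker-high spots, where 20.5% of all genes were higher and 22.1% lower. In smooth-only spots 19 rose and 6 fell, where 17.3% and 21.5% did.

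In the embryo sections 4 of 37 list genes were 4-fold higher in skeletal-only than in cardiac-only spots at E13.5 (Mrln, Stac3, Cacng1, Bin1) and 4 were lower (Trdn, Cacnb2, Slc8a1, S100a1), against 2.6% and 2.8% of all genes. At E16.5, 10 of 40 were higher and 2 lower (Cacnb2 and the sodium-calcium exchanger Slc8a1), against 2.56% and 1.31%. Smooth-only spots exceeded cardiac-only spots by 4-fold in 0 of 36 at E13.5 and 0 of 39 at E16.5, against 2.21% and 1.49% of all genes, and were lower in 7 and 2, against 4.35% and 2.22%. Mrln was at 115 and 74.7 CPM in skeletal-only spots and at 3.55 and 4.41 in cardiac-only spots.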

How the data were processed

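The deposited tables hold raw counts, UMIs per gene and spot, made with Space Ranger 2.0.0 per the file headers, with mm10 and Space Ranger named in the submitters' processing notes. Files held 7357333 to 105835664 UMIs. The tissue images were not used here. Spots under 500 UMIs were dropped, and counts were summed per section and spot class. Classes with 5 or more spots entered the P0 fit in R 4.3.3 with edgeR 4.0.16 (TMM, filterByExpr, quasi-likelihood F test, section as block, adjusted p threshold 0.05; prior degrees of freedom 15.69, residual 2). The block pairs classes cut from the same section. Alternatives included DESeq2 1.42.0, other spot thresholds, filters, scaling and leaving out each section. Embryo ratios used a pseudocount of 0.5 CPM and genes with at least 20 UMIs in both classes together. Poisson, Clopper-Pearson and conditional intervals are exact at 95%. The edgeR fit was tested on simulated counts in R. Sums, shares, ratios and intervals were computed in Python 3.11.15, without such a test.

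All 10 members are named. Of 40 other calcium genes those named are the 5 largest significant P0 changes in each direction between skeletal-marker-high and smooth-only spots (2 fell), plus Ryr3, Atp2a3, Mrln and Strit1, and those counted past 4-fold by name. Genes of like pattern are the 2 with the highest Pearson r, members, markers and listed genes left out; 1 of these is not reported here. Members and lists were chosen with earlier results of these data known. The Myl2 split, with its atrial and ventricular genes, the totals without blood genes and the library-totals scaling were chosen after seeing the data. Further lists, used for spots outside muscle, were neurons (6), liver (Alb, Afp, Apoa1, Apoa2, Fgb) and epithelium (Epcam, Krt5, Krt8, Krt18, Perp).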

Additional observations from a re-analysis of the deposited data

Results flagged for a closer look

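For 3 genes a contrast between muscles had opposite signs in the E13.5 and the E16.5 section; with 1 section per stage, the difference between stages was not tested. The log2 ratio of Casq1 in skeletal-only over cardiac-only spots was -1.99 at E13.5 and 2.94 at E16.5. The log2 ratio of Ryr1 in smooth-only over cardiac-only spots was -0.55 at E13.5 and 0.20 at E16.5, from 4 and 7 UMIs in smooth-only spots. For Cacna1s that ratio was -0.12 at E13.5 and 2.23 at E16.5, from 1 and 12 UMIs in smooth-only spots.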

How the results depend on the processing

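The 6 members that rose in P0 skeletal-marker-high over smooth-only spots passed under all 10 alternatives with a test. In 1 of these, the highest 25% of scores, classes were set by rank within each section, without the score threshold. Skeletal-marker-high was the highest 25% of skeletal scores, beside 7.44% and 15.5% of spots by the threshold. Smooth-only was the highest 25% of smooth muscle scores among the rest, and all remaining spots, high for a muscle list or not, stood in for those with none high. Members lower in that comparison went from 0 to 1 with the highest 25% of scores (Cacna1c), and to 2 with library totals alone, with no filter and with a threshold of 1.5 (Cacna1c and Pln in each). Against spots with no muscle list high, members higher in skeletal-marker-high spots went from 10 to 6 with spots high in both lists left out, where Pln turned to -4.39 (adjusted p = 0.837). With the highest 25% of scores Ryr2 was at -0.66 and Atp2a2 at -0.11 in skeletal-marker-high over smooth-only spots, and Atp2a2 at -0.12 without spots high in both lists. Smooth-only spots over the remaining spots gave Ryr1 -0.084 and Cacna1s -0.088 with the highest 25% of scores. Smooth-only over spots with no muscle list high gave Ryr1 -0.081 at a threshold of 0.75, where 1 member, Sln, was lower. Leaving out 1 replicate, its ranges were -0.17 to 1.58 for Ryr1, -0.31 to 0.30 for Atp2a1 and -0.34 to 0.22 for Sln.

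At E16.5, 0 members were 4-fold higher in smooth-only than cardiac-only spots with thresholds of 0.75 and 1.5, TMM factors and a pseudocount of 5. Members highest in P0 replicate 1 spots with more than 1 muscle list high went from 1 to 3 at a threshold of 0.75. In replicate 2 they went from 3 to 5 at 0.75 and to 1 at 1.5, and those highest in skeletal-only spots from 5 to 3 at 0.75.

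Without the replicate block, genes higher and lower were 1046 and 934, 2629 and 2782, and 2107 and 2537 in the 3 P0 comparisons, and Atp2a2 (0.35) and Pln (2.05) no longer passed against spots with no muscle list high; no other member call changed. DESeq2's Wald test gave 604 and 419 genes for skeletal-marker-high over smooth-only spots, 1880 and 1658 against spots with no muscle list high, and 1072 and 1005 for smooth-only spots. The highest 25% of scores gave 464 and 1489 lower genes in the skeletal-marker-high comparisons. Leaving out spots high in both lists gave 171 and 92, and 434 and 439, and a threshold of 1.5 gave 647 lower genes against smooth-only spots. The causes of these changes were not tested; P0 skeletal-marker-high sums are shallow, with 3 to 8 UMIs for Pln and Ryr2.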

Other observations

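Over the 16 section and class sums with at least 100000 UMIs, the genes whose log2(CPM + 1) was most like each member, among 18988 genes, are given as a description, since sums of a section share its library. Ryr1 was most like Klhl40 (Pearson r 0.975) and Arhgap36 (0.970), Atp2a1 most like Myf6 (0.980) and Mybpc1 (0.979), and Cacna1s most like Chrnd (0.986) and Mylk4 (0.983). Casq2 was nearest to 1110002E22Rik (0.983) and Cox6a2 (0.977), and Sln to Itgb1bp2 (0.981) and 1110002E22Rik (0.975). Casq1 was nearest to Ldb3 (0.947) and Usp2 (0.932). The members of cardiac and broad level had lower highest values: Ryr2 with Rnf207 (0.917) and Gpx3 (0.887), Atp2a2 with Gm12167 (0.937) and Gm26795 (0.935), Cacna1c with Klhdc8b (0.927) and Tbx5 (0.906), and Pln with Arhgap31 (0.935).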
